A study of Mus musculus with 54 samples.

Results

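The cells described here are C1q-positive macrophages from dissociated mouse kidney. They were chosen by transcript: a barcode was kept if it held UMIs of at least 2 of the complement genes C1qa, C1qb and C1qc, at least 3 UMIs over these 3 genes, and 0 UMIs of Cd79a (B cells), Cd3e (T cells) and Pecam1 (endothelium). A UMI is a molecular tag that lets copies of 1 captured transcript be counted once. By this rule 3605 of the 77656 barcodes in the 27 cell libraries were macrophages (4.64%): 2366 from male C57BL/6J mice, 205 from male Balb/c mice and 1034 from female Balb/c mice. The 12 libraries of nuclei, which hold 98303 barcodes, were not searched.

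The study asked how dissociation and storage of kidney suspensions alter what single-cell sequencing recovers, and each of its 9 groups of cell libraries holds 3 libraries. Male C57BL/6J mice (an AFAPIL.1DEL line on that background, 19 weeks old, from 1 litter) were dissociated either with a commercial enzyme kit at 37 °C, called warm, or with a Bacillus licheniformis protease on ice, called cold. Aliquots of these suspensions were run fresh, after 6 weeks of cryopreservation in 50% fetal bovine serum, 40% RPMI-1640 and 10% DMSO, or after 3 months at -80 °C in 80% methanol. Male Balb/c mice (18 weeks, 1 litter) gave cold, fresh libraries only. Female Balb/c mice (15 weeks, former breeders) gave cold libraries that were fresh or cryopreserved for 2 weeks. These used version 3 of the droplet chemistry, where all others used version 2. Their cryopreserved cells were also spun at other speeds at freezing and thawing than the C57BL/6J ones. Cryopreserved cells of both strains were thawed in a water bath at 37 °C. The 3 sets of mice were processed as 3 batches separated in time, so strain, sex, age, chemistry and batch cannot be told apart between them. No group was depleted of red blood cells.

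Libraries held between 983522 and 27869324 UMIs, of which the macrophages contributed 6549820 in all. Pairs of libraries shared at most 1.78% of the barcodes of the smaller one. The third male Balb/c library stood apart, with 31 macrophages at a median of 312 UMIs, against 87 each at medians of 518 and 543 in the others. The first warm, cryopreserved C57BL/6J library also stood apart in its share of macrophages, and both are followed below.

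Resident macrophages of the kidney lie between the tubules, engulf dying cells and debris, and present antigen on MHC class II. C1q, which they make, opens the classical complement pathway by binding antibody and apoptotic cells. Macrophages react within minutes to injury, heat and microbial products. Immediate early transcription factors such as Fos and Egr1 are switched on first, the NF-kB pathway then drives chemokine and cytokine genes together with its own inhibitors, and heat shock factor drives chaperones that refold damaged proteins.

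Genes that the rule did not use marked these barcodes as macrophages. In cold, fresh C57BL/6J libraries, Tyrobp and Fcer1g (adaptors of activating receptors) had a UMI in 89.9% and 92.1% of macrophages, against 4.32% and 4.29% of barcodes outside every named class. Ctss (cathepsin S) was found in 81.3% against 2.06%, Lyz2 (lysozyme) in 75.1% against 3.26%, Cd68 in 53.8% against 1.07%, Ms4a7 in 43.0% against 0.30%, Csf1r (the receptor for the macrophage growth factor) in 40.3% against 0.88% and Adgre1 (F4/80) in 24.2% against 0.29%. Cd74 and H2-Aa, both of the MHC class II system, were found in 100% and 98.5% of them, against 21% and 7.42%. Detection of the dendritic cell genes Flt3 and Cd209a was 0.37% and 1.47%, and of the neutrophil gene S100a8 0.37%. Plac8, a monocyte gene, was found in 2.01%, and Ccr2, the receptor that draws monocytes into tissue, in 23.1%. Whether these cells were long resident or had recently come from blood was not measured.

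RNA of other kidney cells was present as well. Hbb-bs, the beta globin of red blood cells, was detected in 87.7% of cold, fresh macrophages and in 86.2% of the unclassified barcodes, and Kap, a proximal tubule gene, in 66.7% against 76.4%. At the threshold, 190 macrophages had exactly 3 C1q UMIs, 306 barcodes with 2 of the C1q genes had only 2 UMIs, and 96 barcodes met the C1q part but held a UMI of Cd79a, Cd3e or Pecam1. A stricter rule that also refuses other B, T, NK, endothelial, tubule and stromal genes left 2259 macrophages (62.7%). It left 62.1%, 59.7% and 57.7% in cold, fresh C57BL/6J libraries. In cold, cryopreserved ones it left 79.5%, 82.1% and 86.3%, and in cold, methanol-fixed ones 44.2%, 45.8% and 39.9%. At least 5 C1q UMIs were held by 3240 of all macrophages (89.9%).

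Chaperone, chemokine and NF-kB genes were among those higher after warm dissociation. To show the control sequence near such genes, 3 promoters are printed from RefSeq on GRCm38.p6, 5′ to 3′ on the strand of the gene, each as the 250 bases before the transcription start. Capitals mark the match to the factor's motif. The first is that of Hspa1a, the inducible chaperone HSP70 (chr17:34972157-34972406, minus strand), with a match to the heat shock element GAANNTTC. The second is that of Cxcl2, a chemokine that recruits neutrophils (chr5:90903649-90903898, plus strand), with 2 overlapping matches to the NF-kB motif. The third is that of Nfkbia, the inhibitor that shuts NF-kB off again (chr12:55492648-55492897, minus strand), with 1 match to the NF-kB motif.
Hspa1a: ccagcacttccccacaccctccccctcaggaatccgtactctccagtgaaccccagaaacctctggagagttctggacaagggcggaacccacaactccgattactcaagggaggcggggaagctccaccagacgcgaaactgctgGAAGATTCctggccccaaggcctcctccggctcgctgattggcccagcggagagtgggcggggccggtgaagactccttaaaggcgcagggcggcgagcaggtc
Cxcl2: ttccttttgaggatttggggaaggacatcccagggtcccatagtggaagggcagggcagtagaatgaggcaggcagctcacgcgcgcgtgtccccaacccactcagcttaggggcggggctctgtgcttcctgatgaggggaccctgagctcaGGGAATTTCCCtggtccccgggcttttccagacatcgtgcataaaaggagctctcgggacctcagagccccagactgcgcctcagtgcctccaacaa
Nfkbia: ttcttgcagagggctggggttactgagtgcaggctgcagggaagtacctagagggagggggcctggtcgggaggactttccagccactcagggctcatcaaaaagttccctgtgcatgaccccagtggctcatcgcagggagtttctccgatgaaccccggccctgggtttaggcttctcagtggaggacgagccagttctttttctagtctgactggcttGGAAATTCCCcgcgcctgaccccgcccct

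Each motif was searched on both strands in the window from 250 bases before to 50 bases after the start. The heat shock element was present in 7.86% and the NF-kB motif in 4.51% of all 32851 RefSeq promoters, and in 6.82% and 5.78% of the 2213 promoters matched to the genes tested. Of the genes called higher in warm, fresh macrophages, 53 of 74 matched a RefSeq promoter by symbol. The heat shock element was in 5 of their 67 promoters (7.46%) and the NF-kB motif in 6 (8.96%). By list, the heat shock element was in 2 of 5 promoters of the called heat shock genes, the NF-kB motif in 1 of 4 promoters of the called chemokine and cytokine genes and in the 1 promoter matched among NF-kB feedback genes, and the AP-1 motif described next in 0 of 13 promoters of the called immediate early genes. A match is a stretch of letters and no evidence of binding. The AP-1 motif TGANTCA, which Fos and Jun proteins bind, was in 7.81% of all promoters, 6.06% of those of the genes tested and 2 of the 67 (2.99%).

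Cryopreserved suspensions held a larger share of macrophages than fresh ones, and methanol-fixed suspensions a smaller share. In cold, fresh C57BL/6J libraries macrophages were 4.03%, 4.55% and 4.90% of barcodes, a mean of 4.49% ± 0.44 (SD, n = 3). In cold, cryopreserved libraries they were 16.8%, 13.7% and 16.9%, a mean of 15.8% ± 1.84 (SD, n = 3), so every stored library lay above every fresh one. Warm suspensions went from 3.40%, 4.10% and 3.41% fresh to 7.97%, 14.8% and 13.4% cryopreserved. Female Balb/c suspensions went from 3.30%, 2.80% and 4.55% to 10.2%, 10.8% and 11.3%. The share was 3.51-fold, 3.21-fold and 3.10-fold higher after cryopreservation in the 3 sets. Over them it was 3.27-fold higher (exact two-sided permutation test within sets, p = 0.00025, the smallest this test can give). The test treated libraries as independent, although stored and fresh libraries were aliquots of the same suspensions. The study describes aliquots for the female Balb/c mice too, but only the C57BL/6J barcode names carry a code that pairs them. The p-value of the test does not allow for this pairing. Within a single set of 3 against 3 the exact permutation test cannot go below p = 0.10, which each set reached.

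Methanol-fixed C57BL/6J libraries held 2.28%, 2.57% and 3.12% macrophages when cold and 2.00%, 2.17% and 2.43% when warm, all below every fresh library of the same dissociation. The fewest macrophages, 19 of 782 barcodes in the third warm library, give an exact 95% binomial interval of 1.47% to 3.77%. Over both dissociations the share was 0.596 of that in fresh libraries (exact two-sided permutation test, p = 0.005, the smallest this test can give). Aliquots of 1 suspension were again treated as independent. Warm and cold libraries overlapped in each storage state: the ratio of warm to cold was 0.809 fresh, 0.739 cryopreserved and 0.833 methanol-fixed, each with an exact permutation p of 0.20. The fresh libraries did not overlap where macrophages were counted another way. The ratio was 0.708 under a stricter rule that refuses UMIs of further cell types, 0.748 with at least 5 C1q UMIs and 0.766 after barcodes were thinned to 500 UMIs and shallower ones left out (740 of 11851 cold and 944 of 11257 warm), each with an exact permutation p of 0.10, the smallest that 3 against 3 can give. Cryopreserved libraries did not overlap when thinned either (ratio 0.659, exact permutation p = 0.10). Without the first warm, cryopreserved library, whose share was the smallest of its group, the log2 differences were -0.163 in place of -0.436 for warm against cold and 1.956 in place of 1.683 for cryopreserved against fresh. Male Balb/c libraries held 3.53%, 2.80% and 0.867%, and C57BL/6J libraries 2.19-fold more (exact permutation p = 0.10). Without the third male Balb/c library that log2 difference was 0.51 in place of 1.13.

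Among leukocytes alone, cryopreserved libraries did not hold the larger share. Among leukocyte barcodes (macrophages plus barcodes with at least 2 B cell, T cell, monocyte or dendritic cell genes) the share of macrophages was 55.7% ± 8.81 in cold, fresh and 46.0% ± 3.45 in cold, cryopreserved C57BL/6J libraries, 63.5% ± 2.00 and 59.1% ± 2.80 in warm ones, and 74.6% ± 1.86 and 68.6% ± 3.29 in female Balb/c libraries (SD, n = 3 each). Over the 3 sets the cryopreserved share was 0.893 of the fresh one, the opposite direction (exact two-sided permutation test, p = 0.00525). After methanol the ratio was 1.02 (exact permutation p = 0.895). The ratio of warm to cold was 1.15 fresh, 1.29 cryopreserved and 1.26 methanol-fixed (exact permutation p = 0.20, 0.10 and 0.40). That was the opposite direction to the ratios among all barcodes. The monocyte class among these barcodes counts Ace, which proximal tubule cells also make, and the tubule gene Kap stood at 36881, 15817 and 23011 CPM (counts scaled to a common total) in the monocyte barcodes of warm, fresh libraries, so this denominator may hold tubule barcodes. With monocyte barcodes left out of it, an alternative chosen after the data were seen, the ratios were 0.910 for cryopreserved (exact permutation p = 0.0127) and 1.05 for methanol-fixed libraries (exact permutation p = 0.655). In numbers, the 3 cold C57BL/6J libraries held 546 macrophages among 11851 barcodes fresh and 542 among 3519 cryopreserved. Warm ones held 425 among 11257 and 412 among 3483, and female Balb/c ones 575 among 16947 and 459 among 4274. The number of barcodes also depends on how many cells were loaded and captured, so these counts do not give the number of cells in a suspension.

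**Figure D1:**
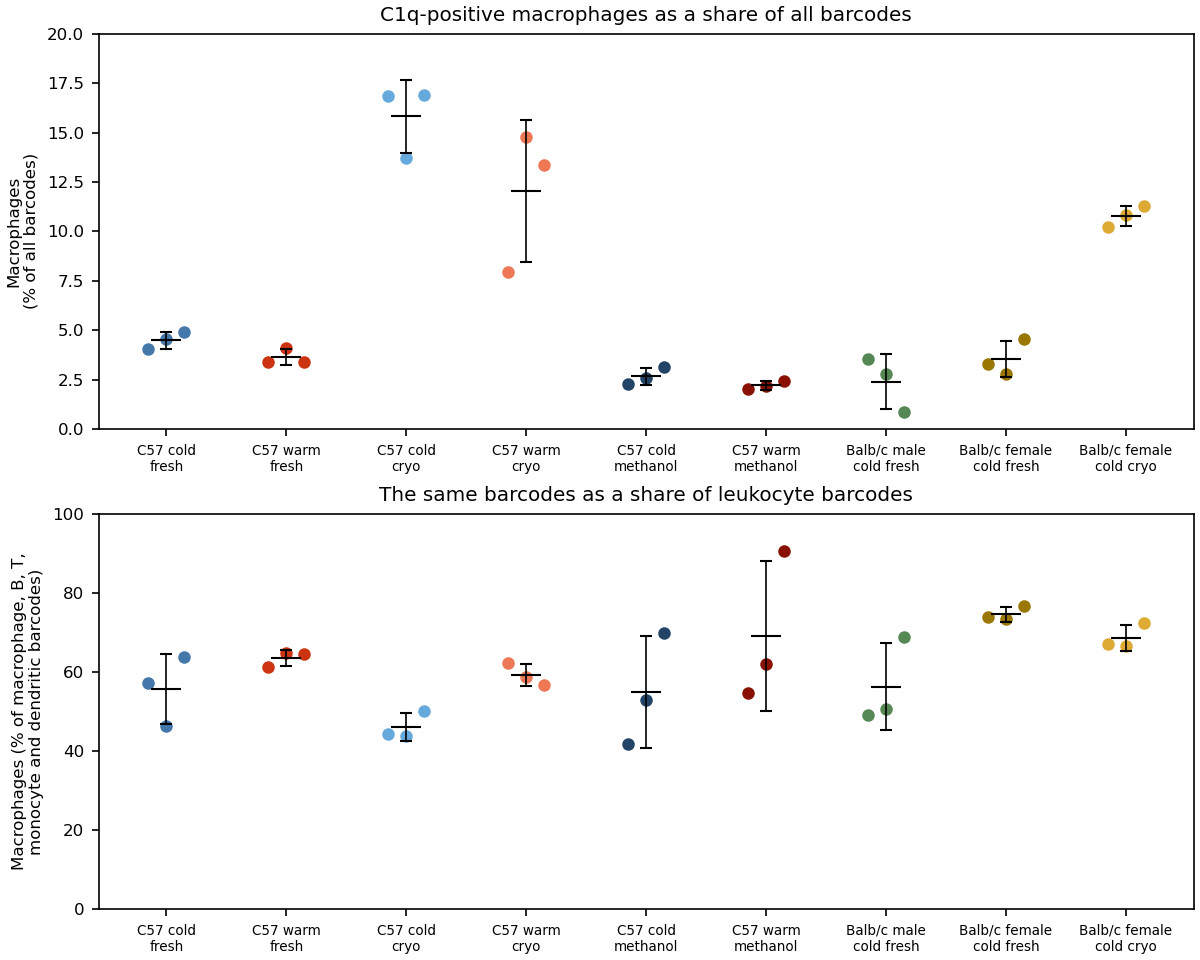
C1q-positive macrophages per library, as a percent of all barcodes (top) and of leukocyte barcodes (bottom); points are the 3 libraries of a group, the long bar their mean and the whiskers 1 SD. All cryopreserved libraries lie above their fresh counterparts in the top panel, from 7.97% to 16.9% against 2.80% to 4.90%, and not in the bottom panel.

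Genes of the acute response stood far higher in warm than in cold macrophages. Of 2277 genes tested in fresh C57BL/6J suspensions, 74 were higher (3.25%) and 6 lower (0.264%) in warm than in cold macrophages (edgeR quasi-likelihood test on UMIs summed per library, Benjamini-Hochberg adjusted p of at most 0.05). Levels are given as CPM, the UMIs of a gene scaled to a common total of macrophage UMIs per library. A gene with 0 UMIs in a library may still be present at up to 8.84 to 18.1 CPM in cold, fresh C57BL/6J libraries (3 counts, counting error only). That limit is 12.6 to 54.4 CPM in cold and 34.6 to 133 CPM in warm, methanol-fixed libraries, and 57.2 to 284 CPM in male Balb/c libraries. Genes reach the test only with enough UMIs, so a gene silent in the cold could be tested only because it was high when warm.

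All 15 immediate early genes tested, of 21 in the list, were higher, with a median log2 fold change of 4.07 against -0.01 over all genes tested. Fos was at 0, 13.1 and 8.84 CPM in the cold libraries and at 4430, 1710 and 2606 CPM in the warm ones, with no overlap (log2 fold change 8.23 ± 0.50 SE, adjusted p = 7.0e-07). Fosb, a Fos relative, had 0 UMIs in all 3 cold libraries and 202 UMIs in the warm ones, at least 74.5-fold higher (against 3 counts over the group). Jun went from 181, 121 and 109 CPM to 2654, 1703 and 2698 CPM (4.07 ± 0.24 SE, adjusted p = 7.0e-07), and Egr1 from 0, 6.56 and 14.7 CPM to 365, 147 and 272 CPM. Dusp1, which switches off MAP kinases, and Atf3, a repressor of inflammatory genes, rose by 4.81 ± 0.26 and 5.52 ± 0.46 (log2, SE). Every warm library lay above every cold one for each of these genes.

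Of 9 heat shock genes tested (11 in the list), 7 rose, with a median log2 fold change of 1.52. Hspa1a was at 0, 3.28 and 2.95 CPM cold and 4322, 2525 and 5496 CPM warm, or 2 against 2594 UMIs, a ratio of 1435 with an exact 95% counting interval of 397 to 11860. Its near copy Hspa1b had 1 against 133 UMIs, and reads of the pair may be split between them. The co-chaperone Dnajb1 rose by 5.20 ± 0.56 (adjusted p = 7.4e-05), and Hsp90aa1, an HSP90 chaperone, went from 66.4, 78.8 and 112 CPM to 777, 550 and 1108 CPM. The warm libraries were again all above the cold ones. Hspa1a was higher in macrophages than in the unclassified barcodes of the same warm libraries, at a mean of 4114 against 277 CPM. Unclassified barcodes rose too, from a mean of 7.23 CPM of Hspa1a in cold libraries. Summed immediate early genes stood in them at 425 to 612 CPM cold and 2557 to 3403 CPM warm.

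Among chemokines and cytokines, 5 of 11 tested (22 in the list) rose: Ccl3, Ccl4, Cxcl2, Tnf and Il1b. Ccl4, which attracts monocytes and T cells, was at 121, 190 and 318 CPM cold and 4126, 2229 and 3707 CPM warm (3.85 ± 0.35 SE, adjusted p = 1.8e-05). Ccl3, a near relative with similar targets, went from 0, 42.7 and 76.6 CPM to 2316, 841 and 1652 CPM (5.00 ± 0.56, adjusted p = 1.0e-04). The unclassified barcodes of the same warm libraries had 8.58 to 12.3 CPM of Ccl3 and 13.9 to 27.3 CPM of Ccl4. Cxcl2 had 0 UMIs cold and 379 warm (506, 493 and 594 CPM), at least 140-fold higher. Tnf, the inflammatory cytokine, had 0 UMIs cold and 56 warm (94.5, 68.7 and 80.5 CPM), at least 20.7-fold higher. Il1b, which was already present in the cold at 78.4, 75.5 and 88.4 CPM, reached 1087, 561 and 866 CPM (3.26 ± 0.27, adjusted p = 9.7e-06).

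Of the NF-kB feedback genes, 3 of 4 tested (13 in the list) rose. Nfkbia went from 48.3, 91.9 and 32.4 CPM to 648, 334 and 303 CPM (2.77 ± 0.39, adjusted p = 0.00071), Nfkbiz, a nuclear regulator of NF-kB targets, from 36.2, 9.84 and 29.5 CPM to 365, 171 and 204 CPM (3.22 ± 0.41, adjusted p = 0.00034), and Cd83, an activation marker, from 66.4, 82.0 and 61.9 CPM to 621, 277 and 353 CPM. Rgs1, which damps chemokine receptor signalling, rose from at most 11.8 CPM in any cold library to 1141, 948 and 681 CPM (7.04 ± 0.47, adjusted p = 1.3e-06). Its log2 fold change ran from 6.41 to 8.39 when 1 library at a time was left out. All 15 tested genes of a 17-gene stress signature that the study drew from these same samples rose, which is not independent evidence of its direction.

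Of 15 macrophage markers 1 was called higher and of 11 identity factors 3, where 3.25% of all genes were called higher and 0.264% lower. None of 6 MHC class II genes, 17 lysosomal genes, 8 phagocytic receptors and 7 interferon response genes tested was called, and their medians were between -0.13 and 0.14 log2. At those overall shares a count of 0 does not set a list of this size apart. Cd74 stood at 79959, 68994 and 60684 CPM cold and at 67921, 53016 and 65595 CPM warm, overlapping (-0.22, adjusted p = 0.73). Adgre1, Csf1r, Cd68, Ctss, Lyz2 and Tyrobp were not called among the macrophage markers. Runx1 and Cebpb rose among the identity factors, calls that were lost in 7 and 3 of 13 alternative settings. The 6 lower genes included Hbb-bt (-2.11 ± 0.37, adjusted p = 0.0043), Hmha1 (-1.21 ± 0.23) and F630028O10Rik (-3.38 ± 0.59). Their number was 2 without the first warm library, 3 without the second or the third cold one and 25 without a filter on low counts. The summed tubule share of macrophage UMIs was 0.545% to 1.10% cold and 0.826% to 1.65% warm, with none of 10 tested tubule genes called.

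**Figure D2:**
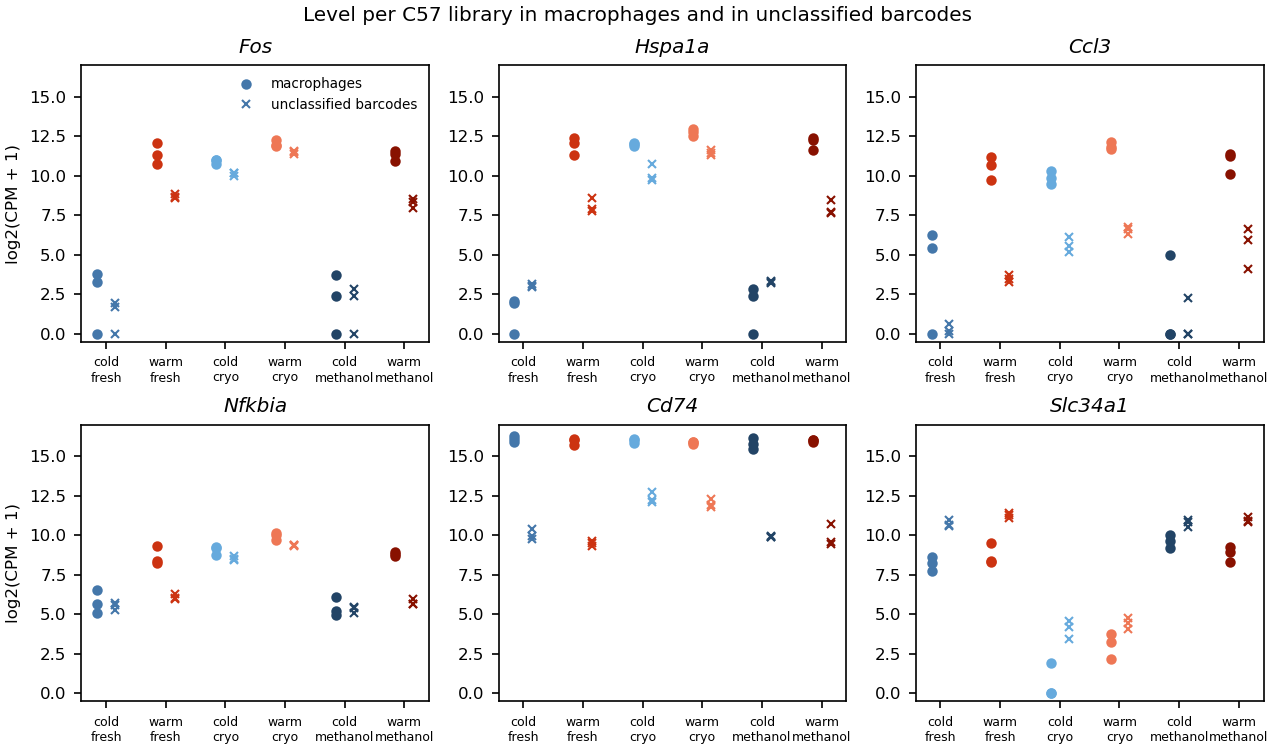
Levels of 6 genes in each C57BL/6J library, as log2(CPM + 1), in macrophages (circles) and in unclassified barcodes (crosses). Fos, Hspa1a, Ccl3 and Nfkbia stand higher in warm than in cold macrophages whether fresh or methanol-fixed, Cd74 stays near 16 in macrophages throughout, and the tubule gene Slc34a1 drops in both kinds of barcode after cryopreservation.

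The response was uneven from cell to cell. Macrophages with at least 500 UMIs were thinned to that number, shallower ones were left out (20 of 546 cold and 26 of 425 warm, fresh C57BL/6J cells, at most 41 in the other groups of that strain, 96 of 205 male and 3 of 575 fresh female Balb/c cells), and each was scored for 16 immediate early genes that were listed in all 27 libraries and present in under 10% of cold, fresh C57BL/6J macrophages, a count chosen after seeing the data. At least 3 of them were found in 0%, 1.08% and 1.16% of cold, fresh macrophages (n = 82, 185 and 259 cells, where 0 of 82 allows up to 3.66%) and in 40.0%, 36.0% and 38.9% of warm, fresh ones (n = 70, 239 and 90). None of the 16 was found in 50.0%, 47.3% and 51.1% of the warm macrophages. The mixture was similar in the 3 warm libraries. Without thinning, at least 3 were found in 22.1%, 10.2% and 7.55% of cold and 41.5%, 42.4% and 38.8% of warm macrophages. With the stricter macrophage rule the warm shares were 35.5%, 29.2% and 28.8%.

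Warm macrophages with at least 3 immediate early genes and those with none differed in other respects too. A UMI of Ccl3, Ccl4, Cxcl2, Tnf or Il1b was held by 96.4%, 74.4% and 82.9% of the former and by 5.71%, 8.85% and 6.52% of the latter. A UMI of Hspa1a, Hspa1b or Dnajb1 was held by 89.3%, 84.9% and 97.1% against 2.86%, 7.08% and 2.17%. Before thinning, the former had medians of 3068, 2330 and 2676 UMIs and the latter 670, 743 and 659. Mitochondrial genes took a median of 8.00%, 14.5% and 10.0% of the UMIs of the former and 26.6%, 37.6% and 30.8% of the latter, and MHC class II genes 65, 64.5 and 58 UMIs of the 500 against 33, 27 and 33. The part of depth and cell quality in this split was not tested. The cells with at least 3 of the genes supplied 64.2%, 50.9% and 67.6% of the UMIs of the scored macrophages, so the summed levels above weigh them more than their number.

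**Figure D3:**
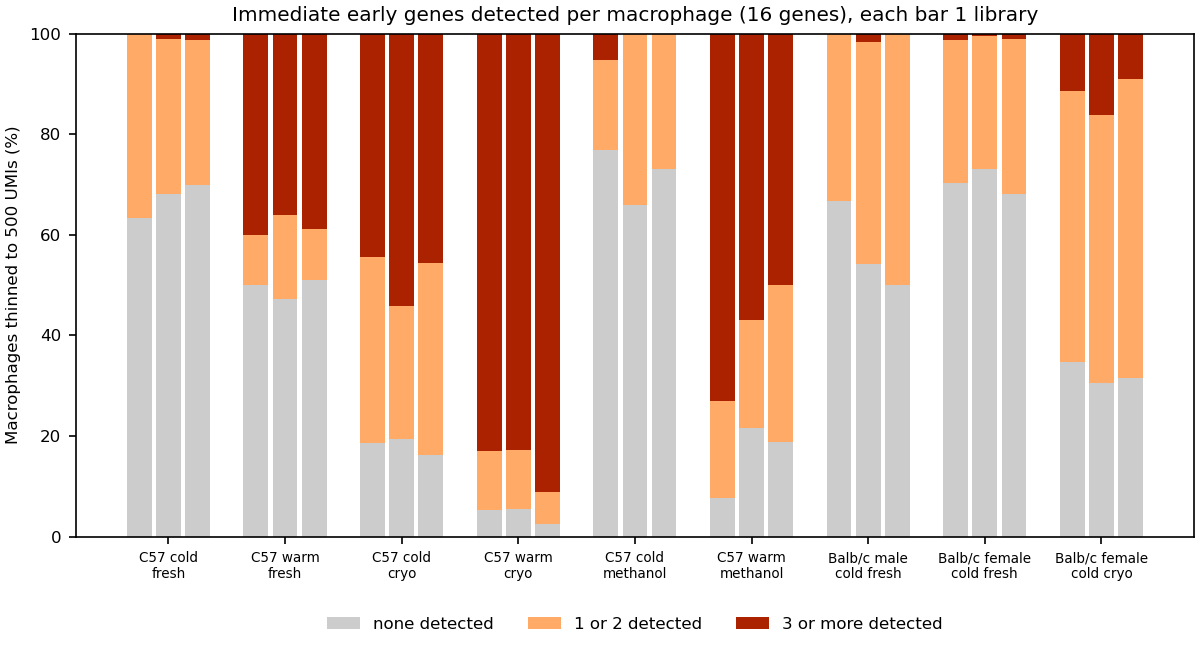
Share of macrophages, thinned to 500 UMIs, with none, 1 or 2, or at least 3 of 16 immediate early genes detected; each bar is 1 library. At least 3 genes were found in at most 5.13% of cells in any cold library that was fresh or methanol-fixed, in 36.0% to 40.0% of warm, fresh cells and in 82.8% to 91.1% of warm, cryopreserved cells.

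**Figure D4:**
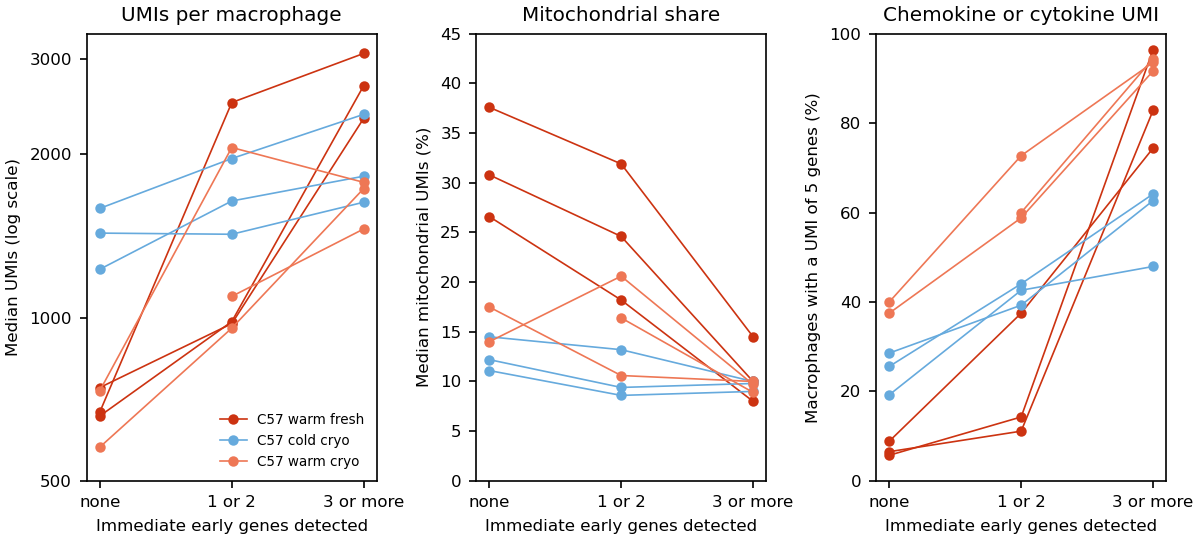
Median UMIs per macrophage (log axis), median mitochondrial percent and percent with a UMI of Ccl3, Ccl4, Cxcl2, Tnf or Il1b, by the number of immediate early genes detected; each line is 1 library. In the warm, fresh libraries depth goes from 659 to 743 UMIs with no such gene up to 2330 to 3068 with at least 3, while the mitochondrial share goes from 26.6% to 37.6% down to 8.00% to 14.5%.

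The acute genes were also higher in warm than in cold macrophages after methanol fixation. In methanol-fixed macrophages 52 of 869 genes tested were higher (5.98%) and 12 lower (1.38%) in warm suspensions. All 11 immediate early genes tested, of 21 in the list, rose (median 4.32 log2 against 0.00 over all genes). So did 5 of 8 heat shock genes (median 1.77), 3 of 7 chemokines and cytokines (Ccl3, Ccl4 and Il1b) and both NF-kB feedback genes tested, Nfkbia and Cd83. A gene silent in the cold could again be tested only because it was high when warm, so the filter in part set these counts and medians. Fos was at 0, 12.4 and 4.20 CPM cold and 2724, 1935 and 3025 CPM warm, or 3 against 353 UMIs, a ratio of 352 with a counting interval of 120 to 1715. Ccl4 was at 0, 43.2 and 164 CPM cold and 5098, 5011 and 2669 CPM warm. At least 3 immediate early genes were found in 5.13%, 0% and 0% of cold and 73.1%, 56.9% and 50.0% of warm methanol-fixed macrophages, of which there were only 26, 65 and 16. In the cold ones 0 of 100 and 0 of 141 cells allow up to 3% and 2.13%. Without thinning the shares were 11.6%, 6.67% and 5.70% cold and 75.9%, 62.5% and 52.6% warm. None of 2170 genes differed between the warm effect after methanol and that in fresh suspensions (edgeR interaction term, 138 genes at an unadjusted p under 0.05; DESeq2 also gave 0). All 4 hemoglobin genes were lower in warm than in cold fixed macrophages (median -1.58). The count of lower genes was 6 without the second warm library, 20, 7 and 5 without the first, the second and the third cold one in turn, and 4 by DESeq2.

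After cryopreservation both dissociations showed the acute genes, and warm still stood higher. Of 2628 genes tested, 208 were higher (7.91%) and 50 lower (1.9%) in warm, cryopreserved macrophages. Of the immediate early genes 17 of 18 rose (median 1.37 log2 against -0.04 over all genes), and all 11 heat shock genes (median 1.64). Ccl4 was at 1139, 1812 and 1574 CPM cold and 11109, 9425 and 9552 CPM warm (2.86 ± 0.17, adjusted p = 2.2e-10), and Cxcl2 at 171, 158 and 351 CPM against 2387, 2155 and 1385 CPM (3.26 ± 0.25). Of 7 NF-kB feedback genes 6 rose, Tnfaip3, which restrains NF-kB by editing ubiquitin chains, from 21, 8.17 and 6.61 CPM to 134, 95.7 and 137 CPM (3.42 ± 0.39, adjusted p = 1.6e-06). The small chaperone Hspb1 went from 0, 35.4 and 33.1 CPM to 280, 415 and 366 CPM. In the unclassified barcodes it stood at means of 547 CPM cold and 1332 CPM warm. The part of such RNA in the macrophage value was not tested. Egr1 was the exception among immediate early genes, at 537, 534 and 437 CPM cold and 446, 365 and 607 CPM warm (0.04, adjusted p = 0.93).

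Among markers, Aif1 and Tyrobp were lower in warm, cryopreserved macrophages, and Ccr2 was lower too, while no MHC class II gene of 7 was called. Of all genes tested, 7.91% were higher and 1.9% lower, so that absence of calls does not set the list apart. Of 13 alternative settings, 9 lost the call for Aif1, 4 that for Tyrobp and 2 that for Ccr2. Umod, Slc12a1 and Egf of the distal nephron were higher (3 of 5 tested), with Umod at 12.0, 5.45 and 36.4 CPM cold and 369, 142 and 262 CPM warm. In the unclassified barcodes Umod stood at 113, 238 and 250 CPM cold and 1147, 953 and 1716 CPM warm, and the part of such RNA in the macrophage value was not tested. The count of lower genes depended on single libraries: it was 32 without the first and 26 without the second warm library, and 76, 31 and 31 without the first, the second and the third cold library in turn.

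The size of the warm effect differed between fresh and cryopreserved suspensions for 29 of 3372 genes (0.86%, edgeR interaction term), 23 with a difference of warm minus cold that was lower after cryopreservation and 6 with one that was higher. Those with a lower one included Hspa1a (-9.45 log2), Fosb (-7.99), Tnf (-6.96), Fos (-6.96), Cxcl2 (-6.84), Egr1 (-4.62), Dusp1 (-3.28), Jun (-2.86) and Ccl3 (-2.86), and Plek, a phagocyte signalling protein (1.67), was among the others. For Fosb, Tnf and Cxcl2, which had 0 UMIs in cold, fresh macrophages, the size depends on the fit.

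Without warm dissociation too, cryopreservation and thawing were accompanied by acute genes in macrophages. The part of the thaw in the water bath, described with the groups, was not tested. Against cold, fresh C57BL/6J macrophages, 169 of 2907 genes were higher (5.81%) and 216 lower (7.43%) after 6 weeks. This comparison and that of warm with cold share the cold, fresh libraries, so their values are given side by side and not correlated. All 15 immediate early genes tested rose (median 3.37 log2, 4.07 in the warm comparison), 7 of 9 heat shock genes (1.71 and 1.52), and 6 of 12 chemokines and cytokines (Ccl2, Ccl3, Ccl4, Cxcl2, Tnf and Il1b). Genes silent in cold, fresh macrophages could be tested here only because they were high after storage. Fos reached 1745, 2068 and 2060 CPM (7.68 ± 0.33, adjusted p = 1.1e-12), below 2 of the 3 warm, fresh libraries. Hspa1a reached 3735, 4214 and 4402 CPM, or 4124 UMIs against 2, a ratio of 1665 (461 to 13750). Tnf reached 372, 286 and 245 CPM (303 UMIs against 0, at least 81.5-fold higher). Il1b reached 249, 237 and 308 CPM and Cd83 141, 87.2 and 112 CPM, the latter not past the test (0.60, adjusted p = 0.16).

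Unclassified barcodes also held higher levels of some acute genes after cryopreservation. Their mix of cells changed too, as the study reports a loss of proximal tubule cells. Tubule genes took 3.85% to 4.83% of their UMIs in cold, fresh and 0.215% to 0.313% in cold, cryopreserved libraries. The part of this change in the values below was not tested. Fos in unclassified barcodes was at most 2.98 CPM in the cold, fresh libraries and 1182, 1034 and 1179 CPM in the cold, cryopreserved ones, and Hspa1a at most 7.85 CPM and then 935, 862 and 1728 CPM. In contrast, Ccl3 in these barcodes was 69.6, 35.1 and 47.3 CPM after cryopreservation, below the 947, 1253 and 708 CPM of the macrophages. At least 3 of the 16 immediate early genes were found in 44.4%, 54.1% and 45.6% of cold, cryopreserved macrophages and none in 18.5%, 19.4% and 16.3%. In the warm, cryopreserved libraries the shares were 83.0%, 82.8% and 91.1% and 5.32%, 5.52% and 2.53%. Without thinning, at least 3 were found in 75.5%, 76.7% and 72.0% of cold and 87.0%, 92.6% and 92.1% of warm, cryopreserved macrophages.

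Of 15 macrophage markers 1 was called, of 11 identity factors 2 were higher and 1 lower, and of 17 lysosomal genes none was called, where 5.81% of all genes were higher and 7.43% lower. Runx1 rose (1.18 ± 0.27, adjusted p = 0.0040), and Maf, a transcription factor of macrophages, fell from 139, 141 and 177 CPM to 63.0, 76.3 and 99.2 CPM (-1.04 ± 0.26, adjusted p = 0.0088). H2-Eb1 was the 1 MHC class II gene of 7 that was called (0.57 ± 0.17, adjusted p = 0.028). The call for H2-Eb1 was lost in 5 and that for Maf in 4 of 13 alternative settings. Lpl (lipoprotein lipase), Isg15 and Hmox1 (heme oxygenase) also rose, with the call for Lpl lost in 8 of those 13 settings.

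The largest falls were in transcripts of other cells. All 9 proximal tubule genes tested (median -4.59 log2) and all 4 hemoglobin genes (median -8.37, or -7.70 with Hbb-bt at its bound) were lower. Slc34a1, the phosphate transporter of the proximal tubule, went from 211, 302 and 386 CPM to 0, 2.72 and 0 CPM, while the unclassified barcodes went from 1990, 1511 and 1612 CPM to 16.9, 9.81 and 22.4 CPM. Hbb-bs went from 3813, 3114 and 3818 CPM to 0, 35.4 and 36.4 CPM, against 2124, 2683 and 6056 CPM and then 0, 16.5 and 30.5 CPM in the unclassified barcodes. Mitochondrial genes took a median per macrophage of 15.6% to 25.7% of UMIs in cold, fresh libraries and 9.37% to 12.2% over all cryopreserved C57BL/6J libraries. The part of the lost tubule, globin and mitochondrial RNA in the other values was not tested. Without the second cold, cryopreserved library 100 genes were higher in place of 169.

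In warm suspensions, in which these genes already stood high, cryopreservation was accompanied by 160 higher (8.43%) and 159 lower (8.37%) genes of 1899. Here 10 of 17 immediate early genes rose (median 0.72 log2 against -0.06 over all genes), 9 of 11 heat shock genes (1.63), 5 of 8 NF-kB feedback genes and 6 of 13 chemokines and cytokines. Fos stood at 4430, 1710 and 2606 CPM fresh and 3839, 4874 and 3919 CPM cryopreserved, overlapping (0.63 ± 0.24, adjusted p = 0.085). Tnf rose from 94.5, 68.7 and 80.5 CPM to 306, 379 and 383 CPM (2.24 ± 0.23, adjusted p = 2.0e-05), and Nlrp3, the inflammasome sensor, from 0, 9.48 and 0 CPM to 57.3, 78.0 and 83.2 CPM (3.70 ± 0.59, adjusted p = 5.8e-04). Csf1r and Grn were lower, as were all 9 tubule genes (median -4.17) and all 3 hemoglobin genes tested. The call for Csf1r was lost in 9 of 13 alternative settings. The count of lower genes was 97 without the second or the third warm, cryopreserved library and 99 without the second warm, fresh one.

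In female Balb/c macrophages 2 weeks of cryopreservation was accompanied by higher immediate early genes, with no heat shock gene called higher. Of 4012 genes, 100 were higher (2.49%) and 322 lower (8.03%). The stricter macrophage rule gave 34 higher and 39 lower, and DESeq2 36 higher and 237 lower. Of 13 immediate early genes 12 rose (median 1.61 log2). Fos went from 7.17, 4.05 and 25.4 CPM to 137, 182 and 59.8 CPM (3.50 ± 0.50, adjusted p = 5.9e-04), and Jun from 124, 121 and 133 CPM to 1008, 932 and 587 CPM (2.94 ± 0.23, adjusted p = 1.7e-05). After thinning, at least 3 of the 16 immediate early genes were found in 1.32%, 0.457% and 0.995% of fresh and 11.4%, 16.2% and 9.02% of cryopreserved cells. Without thinning the shares were 27.6%, 17.1% and 27.4% fresh and 62.7%, 67.1% and 59.0% cryopreserved. Of the heat shock genes Hspd1 and Hspe1, chaperones of mitochondria, were lower (2 of 6 tested), and Hsp90aa1 stood at 203, 219 and 207 CPM fresh and 173, 187 and 187 CPM cryopreserved. Hspa1a, which did not reach the test, was at 2.39, 2.02 and 1.95 CPM fresh and 81.6, 158 and 13 CPM cryopreserved.

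Several macrophage genes rose in these Balb/c cells: 5 of 15 markers (among them Adgre1, Fcgr1, Cx3cr1 and Apoe), 3 of 8 MHC class II genes (H2-Aa, H2-Ab1 and H2-Eb1) and 4 of 17 lysosomal genes. Of all genes tested, 2.49% were higher. H2-Ab1 went from 8241, 7232 and 9409 CPM to 10291, 11265 and 11727 CPM (0.61 ± 0.11, adjusted p = 0.0017). The call for Cx3cr1 was lost in 7 and that for Adgre1 in 5 of 11 alternative settings, and with the stricter macrophage rule only 1 of the markers was called. All 10 proximal tubule genes were lower (median -3.17), the tubule share of macrophage UMIs going from 0.419% to 1.03% down to 0.090% to 0.106%. Mitochondrial genes took a median per macrophage of 26.4% to 27.6% of UMIs fresh and 36.3% to 36.5% cryopreserved. The higher count was 44 without the second cryopreserved library, and 56 and 42 without the first and the second fresh one.

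The effect of cryopreservation differed between cold C57BL/6J and cold female Balb/c macrophages for 42 of 4301 genes (0.977%, edgeR interaction term, a comparison added after seeing the data). It was larger in C57BL/6J for Dnajb1 (6.57 log2), Ier3 (5.67), Atf3 (4.46), Fos (4.21), Hsp90aa1 (3.05), Dusp1 (2.86), Ccl3 (2.76), Nfkbia (2.44) and Junb (1.60). It was more negative in C57BL/6J for Slc34a1 (-4.87), Kap (-2.77) and Maf (-1.37). Strain, sex, age, batch, chemistry, length of storage and centrifugation at freezing and thawing differ together between these groups and cannot be told apart.

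Methanol fixation of cold suspensions was accompanied by lower levels of many macrophage genes. Of 2042 genes, 325 were higher (15.9%) and 292 lower (14.3%) than in cold, fresh macrophages. Of 15 markers 8 were lower (median -0.52 log2 against 0.05 over all genes) and of 8 identity factors 6 (median -1.0), among them Spi1 (PU.1, the master factor of myeloid cells), Irf8 and Zeb2. The call for Spi1 was lost in 8 and that for Irf8 in 3 of 13 alternative settings. Cx3cr1, the fractalkine receptor, was at 284, 180 and 274 CPM fresh and 0, 0 and 50.3 CPM fixed (-3.45 ± 0.54, adjusted p = 0.0016). Csf1r went from 640, 371 and 362 CPM to 236, 86.5 and 222 CPM (-1.58 ± 0.31, adjusted p = 0.0035) and Zeb2 from 199, 128 and 174 CPM to 36.3, 24.7 and 67.1 CPM (-2.01 ± 0.36, adjusted p = 0.0026). Fixed and fresh libraries did not overlap for Cx3cr1, Csf1r or Zeb2.

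Lysosomal genes were lower for 7 of 17 tested, lipid handling genes for 3 of 5, and MHC class II genes for 2 of 6 (H2-Ab1 and H2-DMb1). Immediate early genes were lower for 3 of 9 (Jun, Jund and Btg2), Jun going from 181, 121 and 109 CPM to 90.7, 55.6 and 46.1 CPM. Of all genes tested, 14.3% were lower and 15.9% higher. At those overall shares 2 of 6 or 3 of 9 does not set a list of this size apart. Transcripts of other cells rose: 9 of 10 proximal tubule genes (median 1.22) and all 4 hemoglobin genes (median 1.11). Tubule genes took 2.60% to 3.37% of fixed macrophage UMIs against 0.545% to 1.10% fresh, and hemoglobins 1.73% to 2.63% against 0.721% to 0.874%. The part of this RNA in the fall of macrophage genes was not tested. With the stricter macrophage rule 3 of 13 markers and 1 of 4 identity factors were lower, and 101 genes higher and 94 lower in all. Without the second or the third fixed library the counts were 197 and 105 higher and 178 and 132 lower, and without the second fresh library 180 were higher.

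In warm suspensions fewer genes passed the test, 31 higher (2.35%) and 45 lower (3.41%) of 1319, with only 29, 72 and 19 fixed macrophages. Cx3cr1 was at 196, 197 and 235 CPM fresh and had 0 UMIs in all 3 fixed libraries against 150, at least 10.4-fold lower. Zeb2 was lower (-2.35 ± 0.50, adjusted p = 0.019), as were Fosb and Btg2 of 15 immediate early genes (the calls for Zeb2 and Fosb were each lost in 4 of 13 alternative settings), and none of 10 chemokines and cytokines was called. Of 15 markers 1 was lower (median -0.56 log2 against -0.02 over all genes) and of 9 identity factors 1 (median -0.52). Transcripts of other cells were higher here too: Gpx3 (1.06 ± 0.26, adjusted p = 0.034) and Fxyd2 (1.10 ± 0.24, adjusted p = 0.023) of 10 tubule genes and Hbb-bt (2.52 ± 0.47, adjusted p = 0.010) of 4 hemoglobin genes. Tubule genes took 1.88% to 2.75% of fixed macrophage UMIs against 0.826% to 1.65% fresh, and the part of this RNA in the lower values was not tested. Fos stood at 4430, 1710 and 2606 CPM fresh and 2724, 1935 and 3025 CPM fixed, overlapping (-0.42, adjusted p = 0.42). Single libraries moved these counts: without the first or second fixed library 9 and 10 genes were higher and 14 and 24 lower, and without the first, the second and the third fresh library 7, 81 and 10 were higher and 23, 110 and 18 lower.

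**Figure D5:**
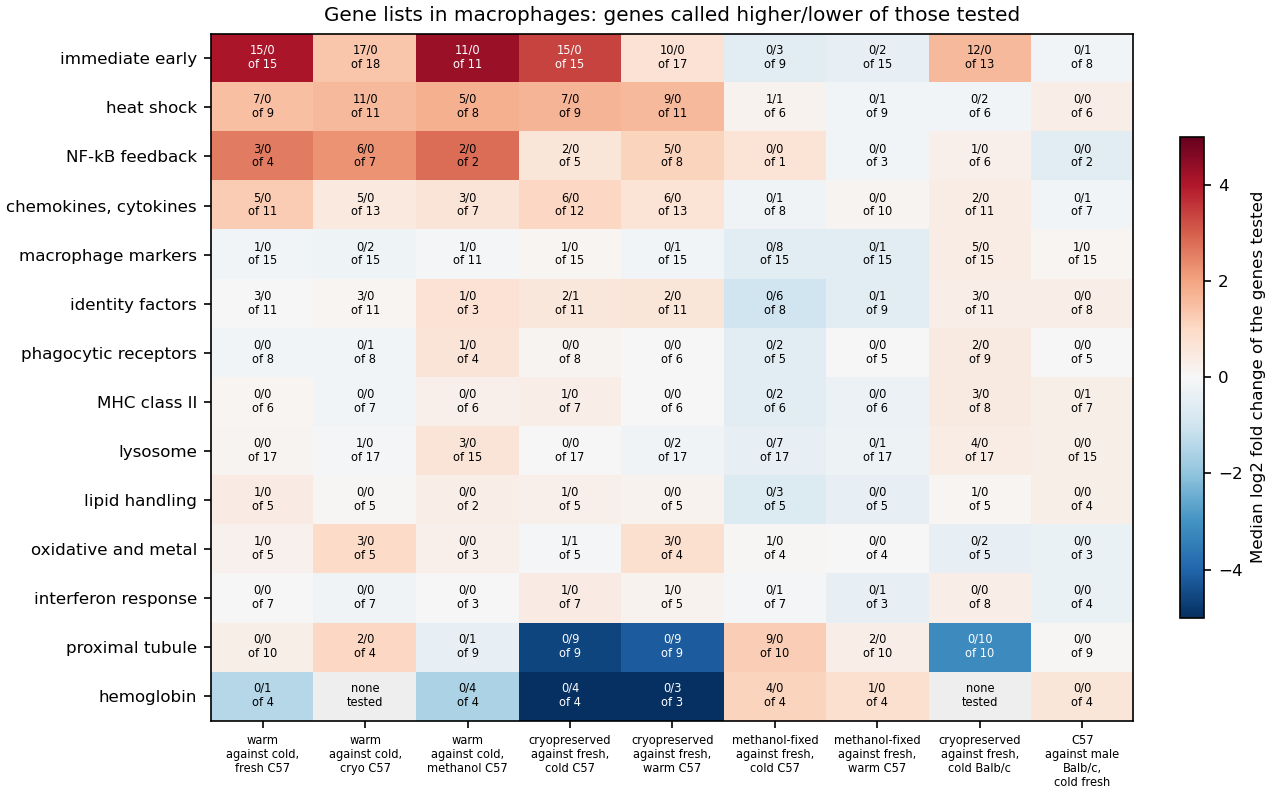
Gene lists in macrophages for 9 comparisons; color is the median log2 fold change of the genes tested and the numbers are genes called higher and lower of those tested. The rows of immediate early and heat shock genes are red in the warm and C57BL/6J cryopreservation columns, the tubule row is deep blue in the cryopreservation columns, and the marker and identity rows are blue for methanol in cold suspensions (medians -0.52 and -1.0, 8 of 15 and 6 of 8 genes lower) and in warm ones (medians -0.56 and -0.52, 1 of 15 and 1 of 9).

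Cold, fresh macrophages of male C57BL/6J and male Balb/c mice differed in 26 higher (2.15%) and 17 lower (1.4%) genes of 1212. Reads of both strains were mapped to mm10, and the part of mapping in these differences was not tested. Male Balb/c files list no mitochondrial genes, which took a median of 15.6% to 25.7% of UMIs per C57BL/6J macrophage. CPM values and UMI ratios of these groups therefore rest on unlike totals, while edgeR fold changes used only genes listed in every library. H2-DMb2, a chain of the MHC class II peptide loader H2-M, was at 12.1, 13.1 and 11.8 CPM in C57BL/6J and 720, 687 and 568 CPM in Balb/c (-5.26 ± 0.35, adjusted p = 3.7e-06), while Cd74 overlapped. Pf4, a platelet-type chemokine that macrophages also make, was at 163, 82.0 and 141 CPM against 720, 859 and 379 CPM (-2.08 ± 0.34, adjusted p = 0.0059). Ly6e, an interferon-induced surface protein, was higher in C57BL/6J, with 373 against 2 UMIs, a ratio of 26.0 (7.15 to 216), and the costimulator Cd86 had 81 against 0 UMIs, at least 3.77-fold higher. Ms4a7 was the 1 marker of 15 called, at 808, 381 and 660 CPM against 300, 191 and 0 CPM. The 0 in the third Balb/c library allows up to 284 CPM. Jund was the 1 of 8 immediate early genes called and Pf4 the 1 of 7 chemokines and cytokines, both lower in C57BL/6J. None of 6 heat shock genes was called. In unclassified barcodes the C57BL/6J and Balb/c means were 154 and 733 CPM for Jund, 2.83 and 6.03 for Pf4, and 10.9 and 18.5 for H2-DMb2. The call for Jund was lost in 6 and that for Ms4a7 in 3 of 11 alternative settings. Umod of the distal nephron was lower in C57BL/6J, a call lost in 3 of 10 settings. Tubule genes took 0.545% to 1.10% of macrophage UMIs in C57BL/6J and 0.850% to 2.21% in male Balb/c libraries, overlapping. The part of such RNA in the other values was not tested. Without the third male Balb/c library 34 genes were higher and 23 lower. Without the first or second male Balb/c library 8 and 7 genes were higher, without the second or the third C57BL/6J library 13 and 17, and 9 and 8 were lower without the second C57BL/6J or the first Balb/c library.

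Tested on their own, 37 genes were higher and 10 lower in warm than in cold B cell barcodes (47 of 676, 6.95%), and 185 were higher and 182 lower in monocyte barcodes of the fresh C57BL/6J libraries (367 of 891, 41.2%), a class whose warm barcodes carried the tubule RNA described with the leukocyte shares. The warm effect in macrophages was set against that in B cells and monocytes of the same fresh libraries. Of 2062 genes, 8 differed between macrophages and B cell barcodes (0.388%, edgeR interaction with the library as block): the difference of warm minus cold was more positive in macrophages for Ly6d (5.68 log2), Gadd45g (4.50), Klf2 (2.70), Btg2 (2.37), Hsp90aa1 (2.00), Nfkbia (1.97), mt-Nd4 (0.54) and mt-Co3 (0.48). The sign of such a term does not say in which cells a gene moved. Ly6d, a B cell gene, was at 0, 0 and 0 CPM cold and 0, 37.9 and 6.19 CPM warm in macrophages, and at 2376, 2126 and 2341 CPM cold and 1039, 1257 and 2375 CPM warm in B cells. Nfkbia in B cells was already 207, 223 and 245 CPM cold and reached 618, 413 and 220 CPM. Fos in B cells went from 0, 7.68 and 17.5 CPM to 1825, 1219 and 792 CPM, and was not among the 8. By cell, at least 3 of the 16 immediate early genes were found, after thinning to 500 UMIs, in 81.8%, 66.7% and 71.4% of warm B cell barcodes (n = 22, 57 and 14) and in 78.9%, 58.3% and 67.9% of warm T cell barcodes (n = 19, 36 and 28), all above the 40.0%, 36.0% and 38.9% of warm macrophages. No warm B or T cell barcode was left out for depth, and without thinning the shares were 90.9%, 94.7% and 100% in B cell and 89.5%, 100% and 92.9% in T cell barcodes. In monocyte barcodes the warm shares, after thinning, were 27.3%, 45% and 58.3% (n = 11, 40 and 12), which overlapped those of macrophages. The cold shares, after thinning, were 5.41%, 3.00% and 1.72% in B cell barcodes and 0% in T cell barcodes, where 0 of 18, 62 and 64 cells allow up to 16.7%, 4.84% and 4.69%. Without thinning the cold shares were 40.5%, 12.6% and 8.62% in B cell and 5.56%, 9.68% and 3.08% in T cell barcodes. Those of monocyte barcodes were 56.25%, 51.2% and 20.8% cold and 36.4%, 80% and 58.3% warm, overlapping. The difference in these shares between cell types was not tested. Between macrophages and monocyte barcodes 2 of 2346 genes differed (0.0853%), Ccl5 (-7.57) and Klf2 (4.05). Kap, whose level in these monocyte barcodes is given with the leukocyte shares, stood at 1033, 3849 and 2061 CPM in the macrophages of warm libraries.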

How the data were processed

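Gene by barcode UMI counts of 27 single-cell libraries of mouse kidney (10x Chromium) were analysed as deposited. According to the methods of the study, the authors made these counts with Cell Ranger 2.1.1 on mm10 from exonic reads, kept barcodes called by EmptyDrops with 200 to 3000 genes and under 50% mitochondrial UMIs, and kept genes seen in at least 10 cells. The deposited files list 12270 to 16524 genes, none of them mitochondrial in the male Balb/c files. The number listed was the same in all fresh C57BL/6J files (13392), in all cold, stored ones (13347) and in all warm, stored ones (13114). Only the cryopreserved Balb/c files differed from one another within their group. A gene not listed in every library of a comparison was not tested. Per the labels, groups were strain, sex, dissociation and storage, and the 3 libraries of a group are separate mice.

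The rule for macrophages, the gene lists and the tests were chosen with earlier results of these data known. UMIs of macrophages were summed per library and compared between groups with edgeR 4.0.16 (quasi-likelihood test, TMM, filterByExpr, at least 10 macrophages per library, Benjamini-Hochberg over all genes tested, R 4.3.3). Shares were compared on the log2 scale with exact permutation tests (Python 3.11.15, scipy 1.17.1). These tests permuted single libraries and did not use the pairing of stored with fresh aliquots, so their p-values do not allow for it. Named in the text were genes of the lists and some of the called genes with the largest fold change. The latter were drawn, per comparison, from up to 10 in each direction that were detected in at least 10% of macrophages of the higher group. Several of these, also among the largest changes, are not named. On simulated counts the test recovered 96.5% to 100% of 4-fold and 38.5% to 69.4% of 2-fold changes. Alternatives were other rules for macrophages, no filter, RLE size factors, DESeq2 1.42.0, 1 fit over 18 libraries, thinning to 500 UMIs (seeded), a leukocyte denominator and each library left out. No doublet caller was run; the rule refuses B cell, T cell and endothelial UMIs, and 7 macrophages had over 10000 UMIs. Nuclei and bulk libraries were not used here.

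C57BL/6J aliquots of 1 suspension carry the same code in the barcode names, which pairs stored with fresh libraries. Pair correlations of deviations from the group means were -0.021 to 0.230 there. Genes with near-identical copies (Hspa1a and Hspa1b, hemoglobins) are uncertain, as reads may be split. Intervals and floors cover counting error only. A few genes are not reported here.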

Additional observations from a re-analysis of the deposited data

Results flagged for a closer look

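Differences between 2 effects, each tested by an interaction term in edgeR, were picked out in 4 places. The warm effect differed between cryopreserved and fresh C57BL/6J macrophages for 29 genes (0.86% of those tested), 23 of them with a lower difference of warm minus cold after cryopreservation, led by Hspa1a. The effect of cryopreservation differed between cold C57BL/6J and cold female Balb/c macrophages for 42 genes (0.977%), 28 with a more positive effect in C57BL/6J, led by Dnajb1 at 6.57 log2.

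The warm effect differed between macrophages and monocyte barcodes of the same fresh libraries for 2 genes (0.0853%), Ccl5 and Klf2, and for 27 genes by DESeq2. It differed between macrophages and B cell barcodes for 8 genes (0.388%), all with a more positive difference of warm minus cold in macrophages, and for 2 genes by DESeq2.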

How the results depend on the processing

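No single-gene call changed direction under any alternative: of 113 gene results named, 78 passed the test in every setting that could be run and 35 missed it in at least 1. Calls lost in more settings than kept were Aif1 in warm against cold cryopreserved macrophages and Csf1r in warm cryopreserved against fresh ones, each in 9 of 13 settings, Adgre1 in warm against cold methanol-fixed, Lpl in cold cryopreserved against fresh and Spi1 in cold methanol-fixed against fresh, each in 8 of 13, Runx1, Hmox1 and Rsrp1 in warm against cold fresh, each in 7 of 13, Cx3cr1 in cryopreserved against fresh Balb/c in 7 of 11, and Jund in C57BL/6J against male Balb/c in 6 of 11. For warm against cold fresh all immediate early genes tested were called higher in every setting except 3, with 14 of 15 under the stricter rule, 16 of 20 without a filter and 16 of 17 with 18 libraries in 1 fit, and no MHC class II or lysosomal gene was called in any. The cause of the changes below was not tested, except that leaving out cells or libraries also leaves fewer UMIs.

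The direction of the share of macrophages depended on the denominator. Among leukocyte barcodes the log2 difference over the sets was -0.163 for cryopreserved against fresh (p = 0.00525, exact permutation test), against 1.71 among all barcodes, and 0.023 for methanol-fixed against fresh, against -0.745. By comparison it was 0.200, 0.363 and 0.331 for warm against cold in fresh, cryopreserved and methanol-fixed C57BL/6J libraries, -0.266, -0.103 and -0.121 for cryopreserved against fresh in cold C57BL/6J, warm C57BL/6J and Balb/c, -0.043 and 0.088 for methanol-fixed against fresh in cold and warm, and -0.007 for C57BL/6J against male Balb/c. With monocyte barcodes left out of that denominator, chosen after the data were seen, the same values in the same order were -0.136 (p = 0.0127, exact permutation test) and 0.067 over the sets, 0.203, 0.239 and 0.357, -0.165, -0.129 and -0.114, -0.01 and 0.144, and -0.178. With the stricter rule, which refuses UMIs of further cell types, it was -0.498 for warm against cold fresh, 2.278, 2.204 and 2.189 for cryopreserved against fresh in cold C57BL/6J, warm C57BL/6J and Balb/c, and -1.236 for methanol-fixed against fresh, cold. With at least 5 C1q UMIs it was 1.983 for cryopreserved against fresh, cold C57BL/6J, and with barcodes thinned to 500 UMIs -0.547 for methanol-fixed against fresh, warm.

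Leaving out 1 library at a time gave log2 differences in share of -0.396 to -0.242, -0.609 to -0.163 and -0.367 to -0.142 for warm against cold (fresh, cryopreserved, methanol-fixed), 1.737 to 1.913, 1.509 to 1.956 and 1.474 to 1.825 for cryopreserved against fresh (cold and warm C57BL/6J, Balb/c), -0.889 to -0.663 and -0.798 to -0.634 for methanol-fixed against fresh (cold, warm), and 0.512 to 1.525 for C57BL/6J against male Balb/c. Leaving out 1 library gave 51 to 78 genes higher and 2 to 7 lower for warm against cold fresh, 187 to 201 and 26 to 76 cryopreserved, and 36 to 69 and 5 to 20 methanol-fixed. It gave 100 to 252 higher and 147 to 318 lower for cryopreserved against fresh in cold C57BL/6J, 107 to 185 and 97 to 178 in warm, and 42 to 109 and 224 to 358 in Balb/c. It gave 105 to 369 and 132 to 342 for methanol-fixed against fresh, cold, 7 to 81 and 14 to 110, warm, and 7 to 34 and 8 to 23 for C57BL/6J against male Balb/c. Lower counts of warm against cold were 2, 3 and 3 in place of 6 without the first warm, the second cold and the third cold fresh library, and 6, 20, 7 and 5 in place of 12 without the second warm and the first, the second and the third cold methanol-fixed library.

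Without the filter on low counts 121 genes were higher and 25 lower for warm against cold fresh, 94 lower for warm against cold cryopreserved, 395, 347 and 561 lower for cryopreserved against fresh (cold C57BL/6J, warm C57BL/6J, Balb/c), 15 higher and 167 lower for methanol-fixed against fresh, warm, and 91 higher for C57BL/6J against male Balb/c. With the stricter rule 10 were lower for warm against cold fresh and 31 higher and 4 lower methanol-fixed, 121 lower for cryopreserved against fresh, cold C57BL/6J, 99 higher and 59 lower, warm, and 34 and 39, Balb/c. For methanol-fixed against fresh this rule gave 101 higher and 94 lower, cold, and 11 and 10, warm, and 7 genes differed from monocyte barcodes. The third warm, methanol-fixed library has fewer than 10 macrophages by this rule and was left out there. With at least 5 C1q UMIs 33 were lower for warm against cold cryopreserved, 97 lower for cryopreserved against fresh, warm C57BL/6J, 49 higher and 186 lower, Balb/c, and 27 lower for C57BL/6J against male Balb/c.

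By DESeq2 3, 6 and 4 were lower for warm against cold (fresh, cryopreserved, methanol-fixed), 91 lower for cryopreserved against fresh, warm C57BL/6J, 36 higher, Balb/c, and 143 higher and 190 lower for methanol-fixed against fresh, cold. DESeq2 gave 27 genes that differed from monocyte and 2 that differed from B cell barcodes. With 18 C57BL/6J libraries in 1 fit, 11 were lower for warm against cold fresh and 10 cryopreserved, and 49 higher and 172 lower for methanol-fixed against fresh, warm. RLE size factors moved no count by over 1.5 times. The difference in warm effect between macrophages and dendritic cell barcodes was not run, since too few such barcodes were found.

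The replicate block was chosen after seeing the data, as was the stricter rule for the 16-gene score. For stored against fresh C57BL/6J libraries, which are aliquots of the same suspensions, the replicate block moved no count of calls by over 1.5 times and changed no other call. It was not run for Balb/c libraries. Warm and cold libraries share suspension numbers that are not stated to mark 1 mouse, and pair correlations were -0.175 to 0.161 fresh, 0.027 to 0.056 cryopreserved and -0.044 to -0.026 methanol-fixed. With that block 10, 79 and 6 genes were lower in place of 6, 50 and 12. Depth limits the methanol-fixed warm and male Balb/c groups most, with 120 and 205 macrophages.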
